A study of Rattus norvegicus with 3 samples.

Results

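A set of 7 genes of the contractile apparatus and of pericytes were followed through the stromal cells of the rat thymus. They, of 34034 features in the count matrix, were chosen by name. Acta2, Myh11, Cnn1, Tagln and Des form the contractile group of 5, and Rgs5 and Cspg4 the pericyte group of 2. All 7 were in the matrix. Each was described across the cell labels that the authors deposited. Within the label vSMC/PC (vascular smooth muscle cells and pericytes, called mural cells below), the co-detection of contractile and pericyte genes was measured.

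Mural cells wrap blood vessels. Smooth muscle cells of arteries and arterioles contract through actin filaments built with alpha smooth muscle actin, which slide along the smooth muscle myosin heavy chain when the myosin light chains are phosphorylated. Pericytes sit on capillaries and small venules within the basement membrane, are recruited by PDGF-B through Pdgfrb, and are known for Rgs5, Cspg4 (NG2), and the potassium channel pair Kcnj8 and Abcc9. In the thymus, pericytes line the vessels through which progenitors enter and mature T cells leave.

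Smooth muscle contractile genes are textbook targets of serum response factor with myocardin-family coactivators, which bind the CArG box. RefSeq promoters of build GRCr8 were matched by symbol, and 5 of the 7 genes had an entry. Of these, 3 are shown: Acta2, the one entry with a match, Cnn1, the sparsest contractile gene below, and Rgs5, the more abundant pericyte gene. Each line is the 250 bases before the annotated start, 5′ to 3′ on the gene's strand, and capitals mark CArG-like matches with up to 1 of the 6 central letters being C or G.
Acta2, chr1:241172504-241172753, minus strand: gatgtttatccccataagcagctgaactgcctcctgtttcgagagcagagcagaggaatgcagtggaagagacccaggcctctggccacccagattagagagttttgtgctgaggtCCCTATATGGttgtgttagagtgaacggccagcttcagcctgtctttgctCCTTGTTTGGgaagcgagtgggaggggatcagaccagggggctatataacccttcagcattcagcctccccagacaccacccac
Cnn1, chr8:28908187-28908436, plus strand: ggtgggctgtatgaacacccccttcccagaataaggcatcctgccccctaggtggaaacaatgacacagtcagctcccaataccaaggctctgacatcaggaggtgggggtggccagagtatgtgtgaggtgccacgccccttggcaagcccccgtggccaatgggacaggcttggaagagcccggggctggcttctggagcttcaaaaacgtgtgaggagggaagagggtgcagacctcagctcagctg
Rgs5, chr13:84380827-84381076, plus strand: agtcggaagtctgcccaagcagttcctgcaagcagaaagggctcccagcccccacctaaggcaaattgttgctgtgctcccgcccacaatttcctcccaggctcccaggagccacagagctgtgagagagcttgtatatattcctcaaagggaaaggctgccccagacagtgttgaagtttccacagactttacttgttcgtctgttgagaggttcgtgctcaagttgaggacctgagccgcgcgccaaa

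The Acta2 window held 2 matches, CCCTATATGG at -134 to -125 and CCTTGTTTGG at -84 to -75 from the start, each with 1 central C or G. The CArG pattern reads the same on both strands, and the 2 matches do not overlap. The windows of Cnn1, Des, Rgs5 and Cspg4 held none, which says only that these letters are not in these windows. Of 27457 rat promoters of the same length, 7.97% held such a match, and 412 held one with all central letters A or T. Among the 40 promoters on hand of genes led by mural cells, defined below, the share was 7.50%, and 1 held one with all central letters A or T.

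The cells came from thymi of Lewis rats aged 8 weeks. Stromal cells were digested with Liberase TH and DNase I, depleted of CD45-positive cells, sorted and run as 1 droplet library. A thymocyte library and 1 spatial section complete the series, so each group had 1 sample, no difference below has a replicate check, and no p-value is given. Whether tissue of several rats was pooled is not stated in the labels. The intervals are 95% intervals (exact Poisson for levels, Clopper-Pearson for shares, exact conditional for ratios) and cover counting error only. Levels are unique molecular identifiers (UMIs) summed per label and divided by the label's total, per 1000000 (CPM), and are compared only within a gene.

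The stromal matrix held 16160 barcodes, of which 13226 carried a label, with a median of 9088 UMIs. Of 29 labels, the 24 with at least 20 cells were used. The mural label held 452 cells, 3.42% of those annotated, with a median of 6446 UMIs (range 831 to 30219). The 2 droplet libraries shared 38 barcodes, 28 of them annotated in both. The mural label carried low sums of the endothelial markers (54.9 CPM over 8 genes, all 8 with a UMI), the epithelial markers (47.4 CPM, 7 of 7), the blood-cell markers (24.6 CPM, 8 of 8), and the skeletal muscle markers (13.0 CPM, 4 of 9). Fibroblast markers reached 5696 CPM (8 of 8), against 41356 CPM in the label capFb. Their part in the levels below was not tested, except where values without the cells that carry them are given.

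Mural cells had the highest level of 6 of the 7 genes among the 24 labels, Cnn1 being the other. The background share of genes highest in mural cells was 3.03%, or 490 of 16162 genes with at least 100 UMIs. The lead was at least 3-fold over the next label for Myh11 and Rgs5 alone, 2 of 7, against a background of 0.359% (58 genes). The labels were made from these same cells, so the levels are a description. Of all Myh11 UMIs in the 24 labels 75.1% fell in mural cells, of Rgs5 61.3%, of Cnn1 46.3%, of Acta2 34.8%, of Cspg4 20.9%, of Des 19.3% and of Tagln 18.3%. Most transcripts of every member but Myh11 and Rgs5 thus came from cells outside the mural label.

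**Figure D1:**
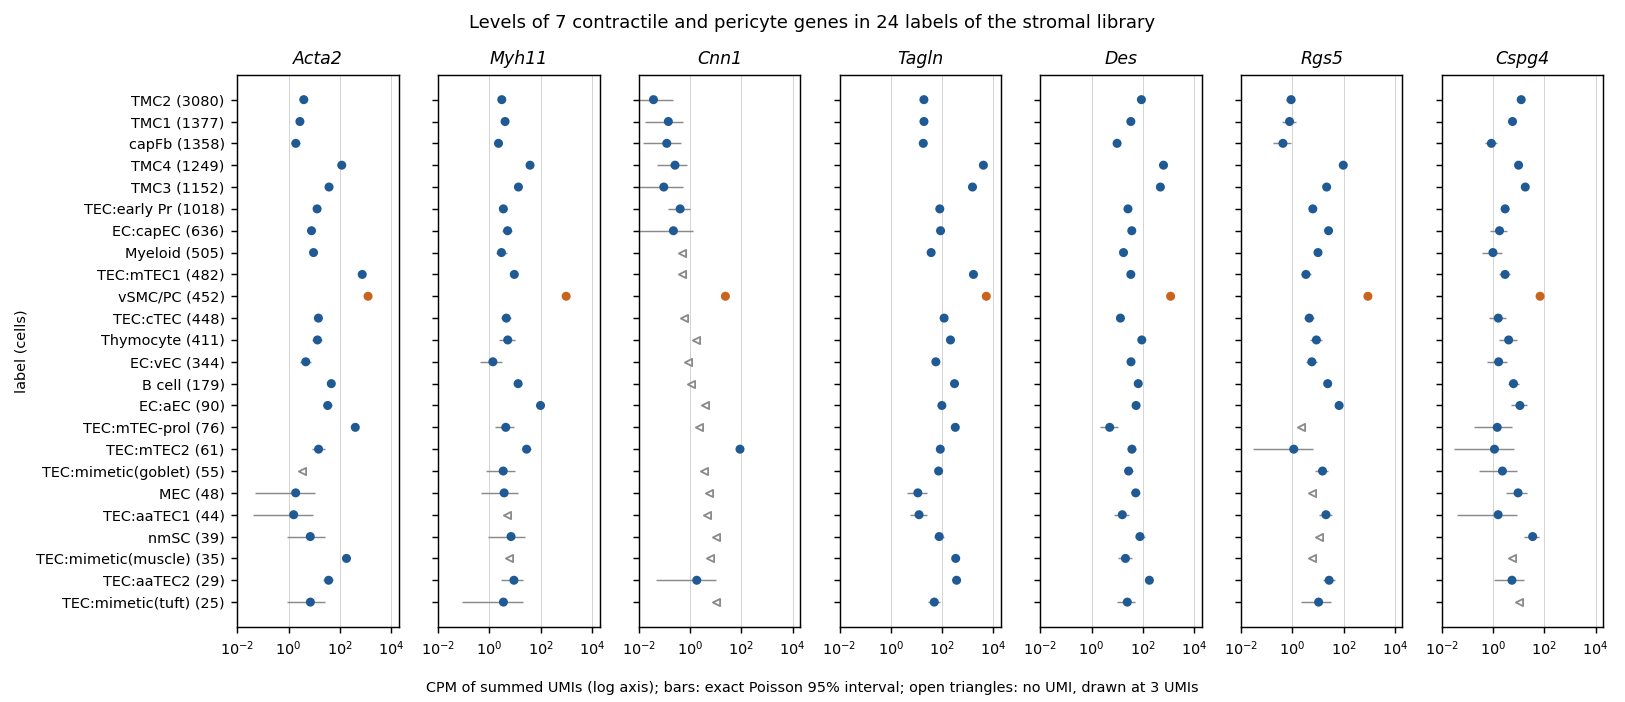
Level of each gene (columns; CPM of summed UMIs, log axis) in each of 24 labels (rows, with their numbers of cells); bars are exact Poisson 95% intervals, orange is the mural label, and open triangles stand at 3 UMIs where no UMI was found. Myh11 (998 CPM) and Rgs5 (895 CPM) stand apart in mural cells, while Tagln is also high in TMC4 (4114 CPM) and Acta2 in TEC:mTEC1 (751 CPM).

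Myh11 encodes the smooth muscle myosin heavy chain, the motor of the contractile filament. Its level was 998 CPM (964 to 1032) in mural cells, on 3365 UMIs, and 61.3% of these cells had a UMI. The next label, the endothelial EC:aEC, had 99.9 CPM, 9.99-fold lower than mural cells (8.00 to 12.6). A single cell held 64 of the 80 Myh11 UMIs of EC:aEC, together with 22 Acta2 UMIs and with 4 of Pecam1 and 5 of Cdh5, both endothelial genes. Without each label's cell with the most UMIs, EC:aEC had 20.2 CPM, and the lead of mural cells was 25.3-fold, over TMC4. TMC4, in which 81.5% of cells had the fibroblast receptor Pdgfra, had 38.9 CPM, and TEC:mTEC2 had 28.6 CPM with an interval that overlapped it. In TEC:mTEC2 a single cell held 18 of the 25 Myh11 UMIs. The label capFb, rich in fibroblast markers, had a Myh11 UMI in 2.50% of cells at a median of 11378.5 UMIs.

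Acta2 encodes alpha smooth muscle actin, the thin filament partner of that myosin. It stood at 1266 CPM (1228 to 1305) in mural cells and was detected in 75.7% of them, against 2.28% in capFb. The lead over TEC:mTEC1, a label of medullary epithelial cells, was 1.69-fold (1.62 to 1.76). TEC:mTEC-prol followed with 402 CPM, TEC:mimetic(muscle) with 182 CPM and TMC4 with 119 CPM. In TEC:mimetic(muscle) the 95 UMIs lay in 3 of 35 cells, with 61, 32 and 2 UMIs, and the first of these carried 129 Epcam UMIs and 106 of Tagln. Below TMC4, the intervals of B cell (46.6 CPM), TMC3 (38.1 CPM), TEC:aaTEC2 (36.6 CPM) and EC:aEC (33.7 CPM) overlapped. A single cell held 22 of the 27 Acta2 UMIs of EC:aEC, and another 16 of the 20 of TEC:aaTEC2. Without these cells the 2 labels had 6.31 and 7.57 CPM.

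Tagln encodes transgelin, an actin-binding protein of early smooth muscle differentiation. It had 5342 CPM (5264 to 5421) in mural cells and 4114 CPM in TMC4, a ratio of 1.30 (1.28 to 1.32). More TMC4 cells (97.6%) than mural cells (87.6%) had a Tagln UMI, at medians of 8717 and 6446 UMIs, against 13.5% in capFb. TEC:mTEC1 had 1687 CPM and TMC3 1544 CPM, and no other label was above 370 CPM.

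Des encodes desmin, the intermediate filament of muscle, which pericytes and other mesenchymal cells also carry. It was detected in 96.9% of mural cells, the highest share of the 7 genes, against 7.44% in capFb, at 1219 CPM (1182 to 1257). TMC4 had 644 CPM, 1.89-fold less (1.82 to 1.97), TMC3 487 CPM, TEC:aaTEC2 181 CPM, and the Thymocyte (91.5 CPM) and TMC2 (88.5 CPM) labels had overlapping intervals.

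Cnn1 encodes calponin 1, an actin-binding regulator and a late marker of the contractile state. It was sparse: 175 UMIs in 36 annotated cells, of which 81 UMIs in 22 mural cells, or 4.87% of them. Mural cells had 24.0 CPM (19.1 to 29.9), and 14 of the 24 labels had no UMI. The highest level, 89.1 CPM in TEC:mTEC2, came from 2 of 61 cells. One held 57 Cnn1 UMIs with 50 of Tagln, 78 of Krt8 and 7 of Aire, and the other held 21 with no UMI of any other of the 7 genes. With TEC:mTEC2 merged into its broader initial cluster, mural cells were 1.86-fold above the next label in place of 0.270-fold.

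Rgs5, a regulator of G-protein signalling typical of pericytes, had 895 CPM (863 to 927) in mural cells, with a UMI in 84.7% of them and in 0.515% of capFb cells. TMC4 had 97.9 CPM, 9.14-fold lower (8.54 to 9.80). EC:aEC had 67.4 CPM, and TEC:aaTEC2 (27.5), EC:capEC (26.1), B cell (24.2) and TMC3 (22.0 CPM) did not differ beyond their counting intervals. A single cell held 41 of the 69 Rgs5 UMIs of the B cell label, which had 9.90 CPM without it.

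Cspg4, the NG2 proteoglycan of the pericyte surface, was lower in count, with 232 UMIs in mural cells (68.8 CPM, 60.2 to 78.2), and was detected in 25.7% of them, against 0.884% in capFb. The next label, nmSC, rested on 10 UMIs (35.3 CPM), and the ratio of 1.95 had an interval of 1.04 to 4.12. This lead is uncertain: by the mean of the cells' CPM, nmSC was above mural cells (ratio 0.940), and with labels under 50 cells set aside it was 3.78-fold over TMC3. TMC3 had 18.2 CPM, TMC2 12.6 CPM and TMC4 9.95 CPM, so Cspg4 did not follow the order of Rgs5 through the TMC labels.

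Of the other contractile genes, 24 of 26 had at least 100 UMIs, with a median ratio over the highest other label of 1.69, against 0.353 for all genes tested. Of the 24, 17 were highest in mural cells (3.03% of all genes tested) and 7 led there at least 3-fold (0.359%). These were Myl9, a regulatory light chain (1240 CPM, 4.54-fold), Lmod1, an actin nucleator (4.40-fold), Actg2, gamma smooth muscle actin (87.2 CPM, against 3 UMIs in the next label), Pln, the calcium pump inhibitor phospholamban (13.7-fold), Casq2, a calcium-storage protein (48.6 CPM, against 1 UMI), Itga7, a laminin-binding integrin chain (8.70-fold), and Fbxl22 (8.04-fold). The 4 highest by level, Myl6 (2615 CPM), Cald1 (2114 CPM), Tpm1 (1648 CPM) and Tpm2 (1386 CPM), were 1.63- to 2.04-fold above the next label. Tested genes that were higher in another label included Synpo2, Actn1, Smtn, Itga8, Dmpk and Pdlim3, named here after their values were seen.

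The other pericyte genes, all 22 of them tested, had a median ratio of 1.46, against 0.353 for all genes tested. Of the 22, 18 were highest in mural cells (3.03% of all genes tested) and 5 led at least 3-fold (0.359%). They included Notch3, the receptor by which mural cells respond to endothelial ligands (582 CPM, 3.06-fold), Ndufa4l2 (382 CPM, 6.22-fold), the matrix protein vitronectin (Vtn, 635 CPM, 3.64-fold) and Egflam (3.02-fold). Abcc9 (686 CPM) was 1.31-fold and Steap4 (681 CPM) 1.01-fold above TMC4 and TMC2, and Cox4i2 (671 CPM) 1.27-fold above TEC:mTEC-prol. Pdgfrb, the pericyte recruitment receptor, was higher in TMC4 (534 CPM) than in mural cells (402 CPM).

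Of the regulators of mural identity 14 of 15 were tested, 5 were highest in mural cells and 2 led at least 3-fold, with a median ratio of 0.787. Over all genes tested the shares were 3.03% and 0.359% and the median ratio was 0.353. The coactivator of serum response factor, Myocd, stood at 35.0 CPM and led 3.65-fold, and the T-box factor Tbx2 at 91.0 CPM led 3.30-fold. Srf itself was at 23.1 CPM, 0.400 of the level in TEC:mTEC-prol. The most abundant regulators were Ebf1 (2057 CPM, below the B cell label), Nr2f2 (954 CPM), Mef2c (412 CPM) and Foxs1 (157 CPM). Of 14 paralogs of the 7 genes, 3 were highest in mural cells and Actg2 alone led 3-fold. Actb (5169 CPM), Vim (1710 CPM), Tagln2 (742 CPM) and Myh9 (476 CPM) were all higher in another label.

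The TMC labels differed widely in these transcripts. TMC4 exceeded TMC2 210-fold for Tagln (192 to 229), 109-fold for Rgs5 (72.8 to 171), 30.3-fold for Acta2, 12.7-fold for Myh11 and 7.28-fold for Des, but 0.788-fold for Cspg4 (0.632 to 0.977). TMC3 was 78.6-fold above TMC2 for Tagln and 24.4-fold for Rgs5, below TMC4 for both, and above both labels for Cspg4. TMC2 and TMC1 had the same Tagln level within counting error (ratio 0.995, 0.858 to 1.16), and their Acta2, Myh11 and Rgs5 intervals of the ratio also included 1. Des was graded, with 88.5 CPM in TMC2, 34.3 CPM in TMC1 and 9.96 CPM in capFb.

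Summed over a label, the balance of Tagln to Rgs5 differed between mural cells and TMC4 or TMC3. There were 5.97 Tagln UMIs for each Rgs5 UMI in mural cells, 42.0 in TMC4, 70.3 in TMC3 and 493 in TEC:mTEC1, but 3.36 in EC:capEC and 1.46 in EC:aEC. Within the mural label, the 90 cells highest in Tagln held 11954 Tagln and 287 Rgs5 UMIs. Their balance follows in part from the choice by Tagln itself, so it is not comparable with those of whole labels. Pdgfra, a fibroblast receptor, was detected in 81.5% of TMC4 cells and 20.4% of mural cells, and Notch3 in 66.2% and 92.3%.

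**Figure D2:**
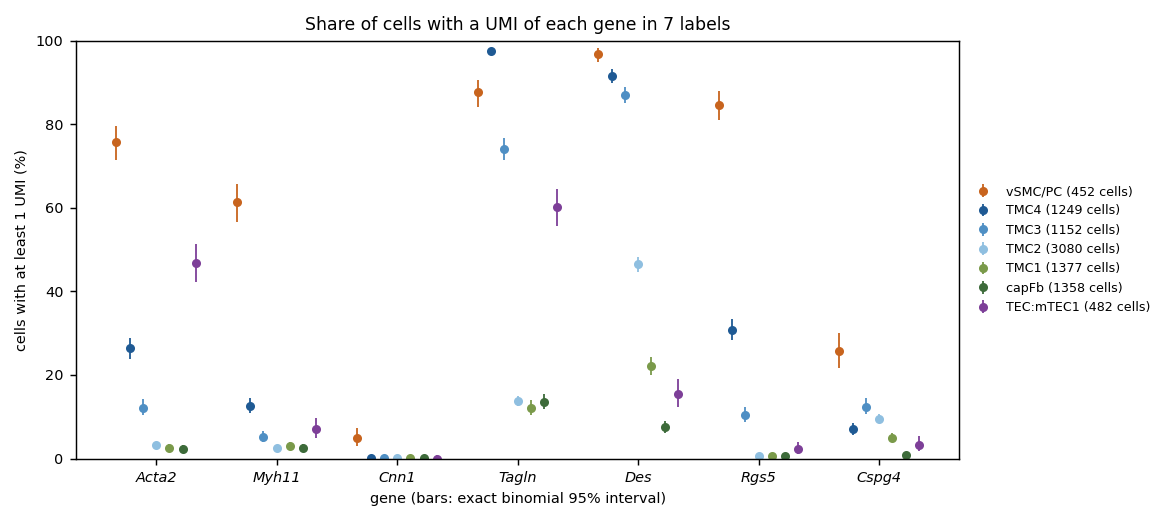
Share of cells with at least 1 UMI (vertical axis, %) for each of the 7 genes (horizontal axis) in 7 labels; bars are exact binomial 95% intervals. Tagln and Des are found in most mural, TMC4 and TMC3 cells, while Rgs5 drops from 84.7% of mural cells to 30.8% of TMC4 and 10.4% of TMC3 cells.

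Within TMC4, the 385 cells with an Rgs5 UMI also held more Acta2, Myh11, Tagln and Des than the 864 without. Acta2 was at 202 against 75.7 CPM (2.67-fold, 2.40 to 2.98) and Myh11 at 71.0 against 22.2 CPM (3.20-fold, 2.64 to 3.90). Tagln differed 1.31-fold and Des 1.16-fold, and Cspg4 did not differ beyond counting error (0.870, 0.569 to 1.31). The chemokine Ccl21, a ligand of Ccr7, was 1.61-fold higher in the cells with Rgs5. The pericyte genes Higd1b (1.46-fold), Kcnj8 (1.30-fold), Notch3 (1.25-fold) and Abcc9 (1.22-fold) were also higher there. Pdgfrb did not differ beyond counting error (1.05, 0.995 to 1.11). The fibroblast genes Pdgfra (0.769) and Dcn (0.839) were lower. Both Acta2 and Rgs5 were found in 11.5% of TMC4 cells, 1.30 times the product of the 2 shares (1.10 to 1.51). In TMC3, the 120 cells with Rgs5 were compared with the other 1032. They were 2.46-fold higher in Acta2, 2.70-fold in Myh11, 1.75-fold in Tagln and 4.30-fold in Ccl21, with Des equal within counting error (1.03, 0.951 to 1.12). The fibroblast genes were mixed in TMC3: Pdgfra (0.707) and Dcn (0.929) were lower in the cells with Rgs5, but Col1a1 was higher (1.56-fold). The cells with Rgs5 were the deeper ones in both labels, with medians of 9780 against 8384 UMIs in TMC4 and 9552 against 8032 in TMC3. The part of depth and of these other markers in the differences was not tested.

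TEC:mTEC1 held high levels of Acta2 and Tagln, and low levels of the other members. Acta2 was found in 46.9% of its 482 cells and Tagln in 60.2%, but Rgs5 in 2.28% (3.42 CPM) and Myh11 in 7.05% (9.48 CPM), and Cnn1 had no UMI. Besides TEC:mTEC-prol (402 CPM), large epithelial labels were far lower: Acta2 was 57.7-fold lower in TEC:early Pr and 51.3-fold lower in TEC:cTEC. Both Acta2 and Tagln were detected in 201 cells, 41.7% of the label, 1.33 times the product of the shares (1.19 to 1.47).

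The 226 TEC:mTEC1 cells with Acta2 had 2646 CPM of Tagln, against 350 CPM in the 256 without (7.55-fold, 7.07 to 8.09). Of the 61 Myh11 UMIs of the label, 58 lay in the cells with Acta2, a ratio of CPM with an interval of 4.52 to 69.3, and both genes were found together in 6.43% of cells, against 4.30% for the product of their shares (interval of the ratio 1.03 to 2.10). They were also higher in the actin regulators Cald1 (4.02-fold) and Tpm2 (2.66-fold), in Myl9 (2.46-fold) and in Ccl21 (3.89-fold). The epithelial genes Epcam (1.32-fold) and Krt8 (2.01-fold) were higher too, but the epithelial gene Krt5 was lower (0.888-fold, 0.865 to 0.912). The fibroblast genes Dcn (0.439-fold) and Col1a1 (0.327-fold), Des (0.656-fold) and Pdgfrb (0.479-fold) were also lower. Cells with Acta2 had a median of 15906 UMIs, against 10179.5. In TEC:mTEC-prol the 49 cells with Acta2 had 462 CPM of Tagln, against 28.6 CPM in the other 27.

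Within the mural label, Rgs5 shared most of its cells with Acta2, Myh11, Tagln and Des: these 4 of the 10 contractile and pericyte pairs were together in 50.2% to 82.3% of cells. The other 6 pairs, with Cspg4 or Cnn1, were together in 2.21% to 25.7%. Both Acta2 and Rgs5 had a UMI in 282 of 452 cells, 62.4% (57.7 to 66.9), Acta2 alone in 60, Rgs5 alone in 101 and neither in 9. The product of the 2 shares, taken within 5 equal classes of the cells by total UMIs, was 64.0%, so the observed share was 0.975 of it (0.902 to 1.05). With every cell thinned to 3000 UMIs, which left out 43 cells, the expected share with both was 48.7%, 0.968 of the product. Acta2, Myh11 and Rgs5 were all detected in 193 cells (42.7%), Acta2 and Myh11 without Rgs5 in 48 (10.6%), and Rgs5 with neither in 67 (14.8%). At least 3 of the 7 genes were detected in 95.1% of mural cells, against 49.1% in TMC4, 25.1% in TMC3 and 1.85% in TMC2.

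Of the 10 pairs of a contractile with a pericyte gene, 6 were below the product and 4 above, with a median of 0.983. With the product held fixed, the interval excluded 1 for 2 pairs, both with Cnn1. Limits that the 2 shares set on the ratio are not in it. An interval that includes 1 therefore does not show that a pair is independent. Cnn1 and Rgs5 were found together in 10 cells, 0.544 of the product (0.262 to 0.991), so 12 of the 22 cells with Cnn1 had no Rgs5. Cnn1 and Cspg4 were together in 14 cells, 2.20 times the product (1.21 to 3.66). Des with Rgs5 (372 cells, 1.00) and Tagln with Rgs5 (330 cells, 0.985) were near the product. With shares this high the ratio can hardly leave 1, so it cannot tell whether such genes avoid each other. Tagln without Rgs5 was found in 66 cells, Rgs5 without Tagln in 53 and neither in 3. Of the 10 pairs of contractile genes none was below it, and Acta2 with Myh11 had an interval above it (241 cells, 1.14, 1.03 to 1.23). In these pairs the 22 cells with Cnn1 all held Acta2, Tagln and Des, and 20 held Myh11.

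**Figure D3:**
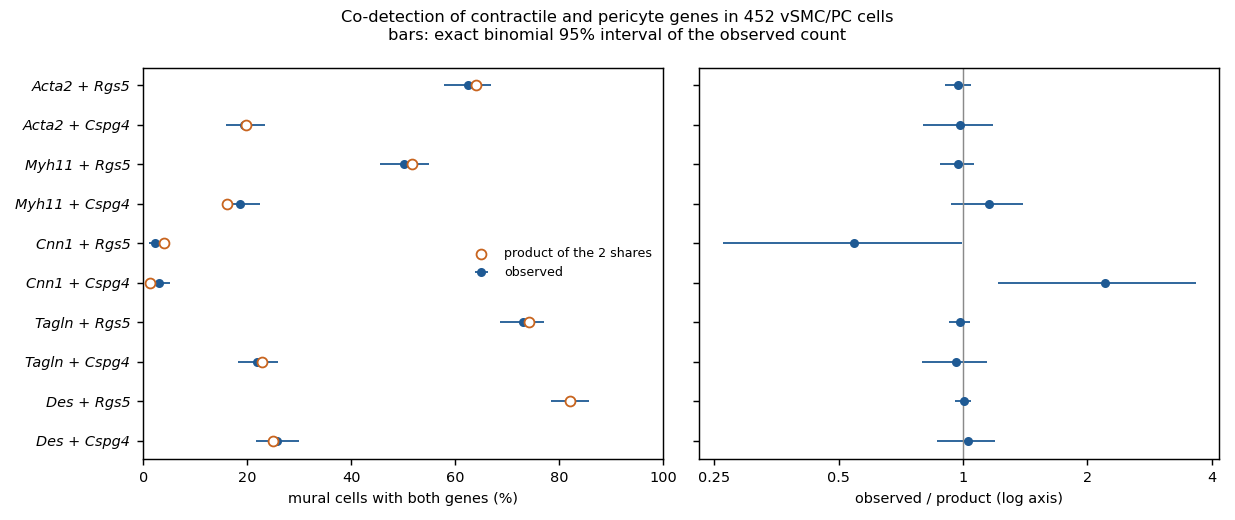
Left, share of the 452 mural cells with a UMI of both genes (horizontal axis, %), observed with its exact binomial 95% interval and as the product of the 2 shares within depth classes; right, the ratio of the 2 values (log axis). Of 10 pairs, the interval, with the product held fixed, leaves 1 only for Cnn1 with Rgs5 (0.544) and Cnn1 with Cspg4 (2.20).

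In amount, Rgs5 and Tagln ran in opposite order. Across the 452 mural cells the rank correlation of CPM was -0.49 between Tagln and Rgs5 (Spearman; cells of 1 library, given as a description), -0.15 between Acta2 and Rgs5 and -0.08 between Myh11 and Rgs5. Acta2 went with Myh11 (0.62) and with Tagln (0.51), and Des was near 0 with Rgs5 (0.10) and with Acta2 (0.07). Cspg4 went more with Myh11 (0.29), Cnn1 (0.22) and Acta2 (0.15) than with Rgs5 (0.08). After thinning to 3000 UMIs, Myh11 with Rgs5 was -0.018. The Tagln and Rgs5 value was -0.48 after thinning to 3000 UMIs, -0.52 in the 360 mural cells without Pdgfra, and between -0.51 and -0.38 within each of the 5 depth classes.

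Ordered by Tagln, the lowest of 5 equal classes of mural cells had 87 CPM of Tagln and the highest 13887 CPM. Over these classes Rgs5 went from 1534 through 1183, 1085 and 671 to 333 CPM. Acta2 went the other way, from 234 to 2531 CPM, as did Myh11, from 310 to 1973 CPM. Cnn1 had no UMI in the lower 2 classes and 87.1 CPM in the highest. Des stayed between 881 and 1411 CPM and Cspg4 between 53.5 and 95.8 CPM, with no steady order. Of the companions, Abcc9 went from 1225 to 378 CPM and Vtn from 1092 to 223 CPM with Rgs5, while Lmod1 went from 62.1 to 385 CPM and Myl9 from 585 to 1919 CPM with Tagln. Notch3 varied little, between 495 and 674 CPM.

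Other measures moved with the same order. The median total went from 4434 UMIs in the lowest Tagln class to 8565 in the highest. By total UMIs instead, Rgs5 went from 1764 to 550 CPM and Tagln from 1990 to 6839 CPM, while Acta2 (1097 to 1400 CPM) and Myh11 (894 to 1141 CPM) showed no such order. Ccl21 went from 1740 CPM in the lowest Tagln class to 25723 CPM in the highest, and Dcn from 3689 to 1693 CPM, although the median cell's Dcn was higher in the highest class (742 against 237 CPM). In the 360 cells without a Pdgfra UMI, Rgs5 again went from 1974 to 341 CPM and Ccl21 from 1137 to 29251 CPM across the Tagln classes, while Dcn turned, from 192 CPM in the lowest to 1166 CPM in the highest. The part of depth and of Ccl21-rich RNA in this order was not tested beyond these values.

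**Figure D4:**
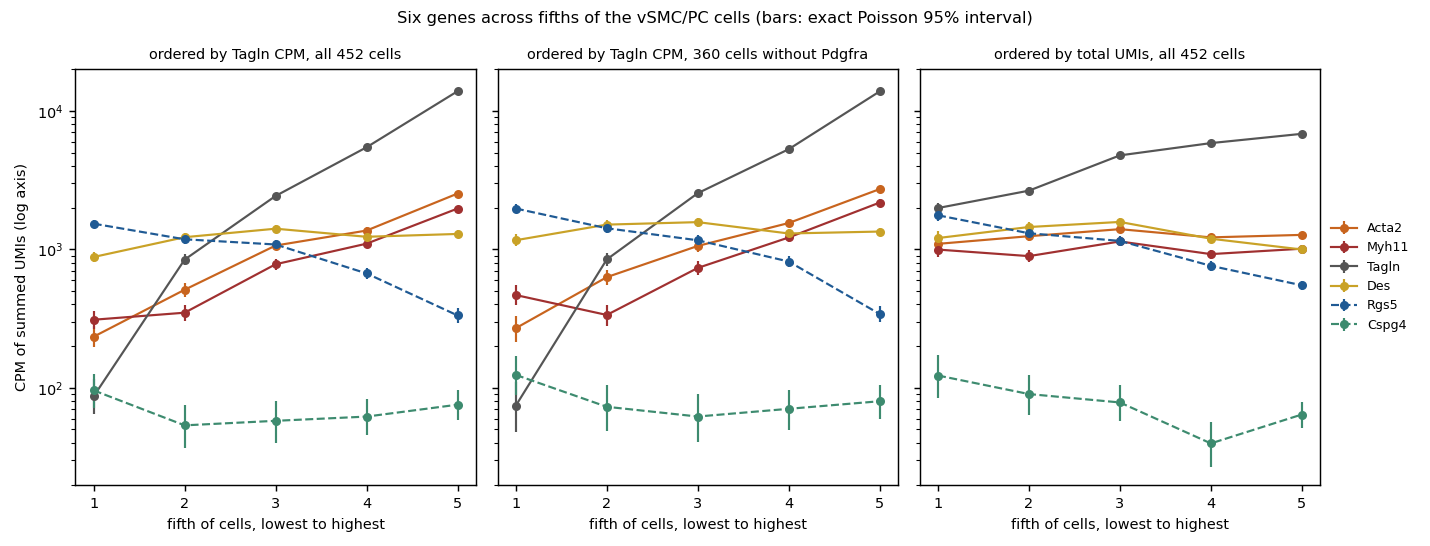
Level of 6 genes (CPM of summed UMIs, log axis) in 5 equal classes of the mural cells ordered by Tagln CPM (left: all 452 cells; middle: the 360 without Pdgfra) or by total UMIs (right); bars are exact Poisson 95% intervals. Rgs5 is lower and Acta2 and Myh11 higher toward high Tagln in both left panels, and Rgs5 is also lower toward high totals.

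From 2 contractile genes upward, each class with more of them had Rgs5 in a smaller share. The intervals of the classes with 2, 3 and 4 overlapped, and only the class with all 5 lay below them. That class needs Cnn1, and its cells are 20 of the 22 with Cnn1. Its low share is thus not a result apart from that of Cnn1 with Rgs5 above. Rgs5 was detected in 93.9% of the 82 cells with 2 contractile genes, in 87.6% of the 121 with 3, in 83.6% of the 207 with 4 and in 40.0% of the 20 with all 5 (19.1 to 64.0). Their median totals were 5865, 5740, 7200 and 7904 UMIs. The Rgs5 level in these classes was 1260, 957, 810 and 187 CPM. The 20 cells with 1 contractile gene did not follow this order in share (85.0%) but did in level (1690 CPM), at a median of 2813.5 UMIs, and the 2 cells with none both had Rgs5.

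A single transcript was used to cut the mural cells into ranges, which are not cell types. The 277 cells with a Myh11 UMI, 53 of which had exactly 1, were set against the 175 without, at medians of 6969 and 5581 UMIs. Of 5678 genes with at least 100 UMIs, 162 (2.85%) were at least 2-fold higher and 39 (0.687%) at least 2-fold lower in the cells with Myh11. With cells thinned to 3000 UMIs, 76 of 2323 genes were higher, and to 1000 UMIs 39 of 711, and with at least 3 Myh11 UMIs required 89 were lower. Acta2 was 4.62-fold higher (1704 against 369 CPM, 4.17 to 5.13) and Tagln 2.24-fold (6528 against 2913 CPM). Cnn1 had 79 UMIs against 2, a ratio of CPM with an interval of 5.17 to 162. Des was equal within counting error (0.952, 0.892 to 1.02), and Cspg4 was 1.53-fold higher (1.13 to 2.11). Rgs5 was at 0.796 of the other cells (0.739 to 0.857), but this direction was not stable: after thinning to 3000 UMIs the ratio was 1.02.

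Among the other contractile genes 9 of 20 tested were at least 2-fold higher in the cells with Myh11 and none lower, with a median ratio of 1.77 against 0.977 for all genes. Among the other pericyte genes none of 21 was higher and 1 was lower, with a median of 0.710. That gene was Kcnj8 (0.418, 0.377 to 0.462), the pore of the vascular potassium channel, and its partner Abcc9 was at 0.540 and Pdgfrb at 0.584. Notch3 was equal (1.01, 0.919 to 1.11). Of the 8 fibroblast markers 4 were at least 2-fold higher, with a sum of 6497 against 4056 CPM, and Ccl21 was 1.83-fold higher. Their part in the difference was not tested, but without the Pdgfra-positive cells Acta2 was 4.63-fold and Tagln 2.76-fold higher.

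The 10 genes furthest up in cells with Myh11 were Map3k7cl (265 against 7.23 CPM), Kcnab1, Sncg, S100a4, Cdh13, Pln, Fmod, Mustn1, Slc8a1 and Stum, with ratios of 36.7 to 5.75. They include Pln and the sodium-calcium exchanger Slc8a1, both of calcium handling, and the potassium channel subunit Kcnab1. The 10 ranked genes furthest down were Thy1 (130 against 389 CPM), Cyria, Enpp1, Ccl2, Pdzd2, Rgs16, Kcnj8, Plac8, Dapk2 and Nt5e, with ratios of 0.334 to 0.453. Ccl2, a chemokine for monocytes, was at 655 against 1674 CPM, and Rgs16, a relative of Rgs5, at 244 against 594 CPM.

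Cut by Rgs5, the 69 cells without a UMI were compared with the 383 with one. The medians were 7172 and 6233 UMIs, so the cells without Rgs5 were the deeper ones. In cells with Rgs5, 170 of 5678 genes (2.99%) were at least 2-fold higher and 75 (1.32%) lower. Acta2 was at 1030 against 2497 CPM (0.412), Myh11 at 713 against 2482 CPM (0.287), Tagln at 0.439 and Cnn1 at 0.0549 (0.0306 to 0.0939), while Des did not differ beyond counting error (1.07, 0.986 to 1.17). Cspg4, the other pericyte member, was lower in cells with Rgs5 (0.633, 0.465 to 0.875). Of the other pericyte genes 8 of 21 were at least 2-fold higher in cells with Rgs5 and none lower, and of the other contractile genes 6 of 20 were lower and none higher. The Notch target Hey1 had 184 UMIs against 0, a ratio of 11.8 with the 0 set to 3 UMIs and an exact lower limit of 9.49. Vtn (3.76-fold), the endothelin receptor Ednrb (4.13-fold) and Art3 (3.88-fold) were among the 10 furthest up of the genes detected in at least 25% of mural cells. The elastin gene Eln (0.187-fold), S100a9 (0.230), Pln (0.294) and Map3k7cl (0.295) were furthest down among genes outside the 7 that were detected in at least 25% of mural cells.

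The 22 cells with Cnn1 were compared with the rest. Against the other 430, Myh11 was 5.70-fold higher (4279 against 751 CPM), Acta2 3.13-fold (3452 against 1102 CPM), Tagln 2.19-fold and Cspg4 3.20-fold (2.26 to 4.45). Rgs5 was at 208 against 947 CPM (0.220, 0.162 to 0.291), Abcc9 at 0.294 and Kcnj8 at 0.231. Of 5679 genes 182 (3.2%) were at least 2-fold higher and 580 (10.2%) lower, with few UMIs behind each gene in 22 cells. Of the other contractile genes 14 of 20 were higher and none lower, and of the other pericyte genes 9 of 21 were lower and none higher. Eln (6.51-fold) and S100a9 (8.87-fold) were up, and Rgs16 (3 against 1206 UMIs, ratio interval 0.00681 to 0.0969), Ednrb (0.0966) and Vtn (0.107) down. Ccl21 was lower here (0.595), unlike in the order by Tagln. The 2 pericyte genes went apart here: 63.6% of the 22 cells had Cspg4 and 45.5% had Rgs5, against 23.7% and 86.7% of the other cells.

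**Figure D5:**
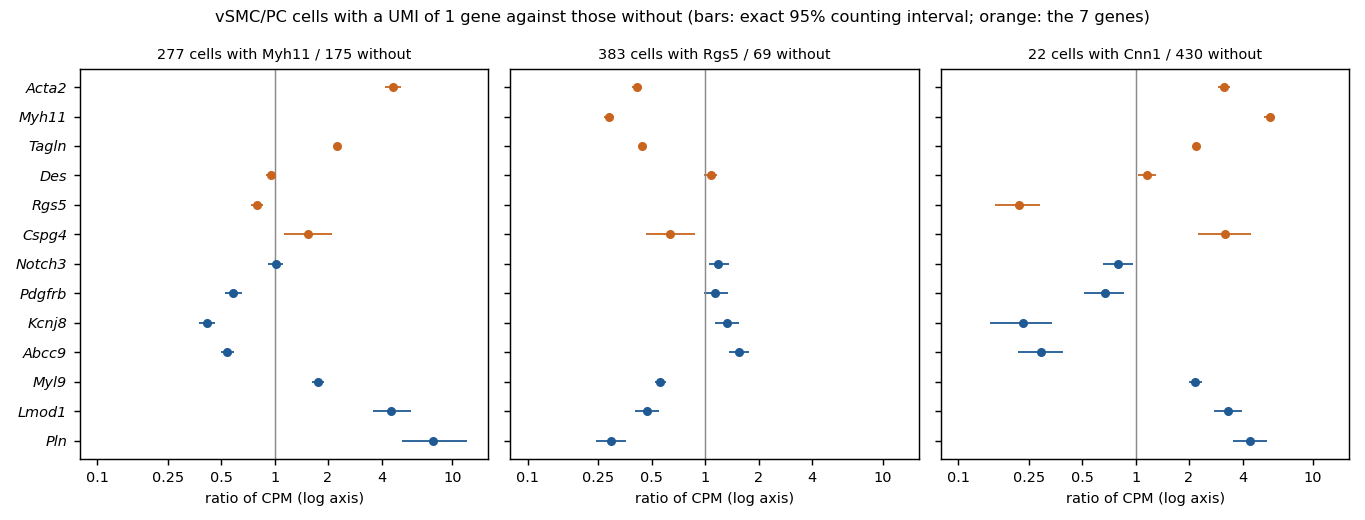
Ratio of CPM (horizontal, log axis) of 13 genes between mural cells with and without a UMI of Myh11 (left), Rgs5 (middle) and Cnn1 (right); bars are exact 95% counting intervals, and orange marks the 7 genes. Acta2, Tagln, Lmod1 and Pln are above 1 in the cells with Myh11 or Cnn1 and below 1 in those with Rgs5, and Des stays between 0.952 and 1.17.

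The distribution over cells also differed by gene. The top 45 cells of 452 held 28.8% of the Des UMIs and 32.9% of the Rgs5 UMIs, but 49.0% of Acta2, 50.1% of Tagln and 63.9% of Myh11. The median cell had 7.5 UMIs of Des, 5 of Rgs5, 14 of Tagln, 4 of Acta2 and 1 of Myh11, and the maxima were 53, 36, 650, 85 and 237. Des and Rgs5 were spread more evenly over the label than the other 3.

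Over the 18 labels of at least 50 cells, the genes with the most similar pattern of log2(CPM + 1) were found by Pearson correlation, as a description. Rgs5 was closest to Vtn (0.94), Ndufa4l2 (0.94) and Stac (0.91). Des was closest to Gucy1b1 (0.96), Notch3 (0.96) and Rasl11a (0.95), and Cspg4 to Ednra (0.94), Atp1b2 (0.94) and Gucy1b1 (0.93). Myh11 was closest to Pcp4l1 (0.93), Itga7 (0.92) and Nrip2 (0.89). Tagln was closest to 2 chemokine genes, Ccl19 (0.96) and Ccl21 (0.92), and then Gpr176 (0.91). Acta2 was closest to Atp6v0a4 (0.92), Flna (0.87) and Palm2 (0.86). Atp6v0a4 had 7.41 CPM in mural cells, so its likeness over labels does not show a companion of Acta2 there. Cnn1 was closest to Tnnc2 (0.92), Nppb (0.88) and Cfap251 (0.88), with 78 of its 175 UMIs in 2 TEC:mTEC2 cells. Among the 7 genes themselves the closest were Des with Cspg4 (0.87) and Acta2 with Tagln (0.83), and Acta2 with Rgs5 reached 0.40.

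In the thymocyte library, with 8546 annotated cells and a median of 3994 UMIs, the members were unequal. Acta2 had 871 UMIs (13.5 CPM, 12.6 to 14.4) in 8.33% of cells and Myh11 332 UMIs (5.15 CPM) in 2.98%. Tagln had 37 UMIs (0.574 CPM), Des 33 (0.512 CPM), Rgs5 57 (0.885 CPM) and Cspg4 3, and Cnn1 had none, where the limit of 3 UMIs taken for a count of 0 is 0.0466 CPM and the exact Poisson upper bound 0.0572 CPM. Acta2 was highest in the DP label (23.1 CPM, 436 UMIs), above every level from TMC2 (3.94 CPM), TMC1 (2.78 CPM) and capFb (1.92 CPM) in the stromal library. Of the 33 Des UMIs, 30 lay in the B+myeloid label. Acta2 and Tagln, at 1266 and 5342 CPM in mural cells, therefore stood in another ratio in thymocytes.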

How the data were processed

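Data of 2 droplet single-cell libraries were used, 1 of stromal cells and 1 of thymocytes. The deposited matrices hold whole-number counts of UMIs, and their file headers name Cell Ranger 8.0.0. The submitters' processing notes name Cell Ranger 8.0.0, Seurat 5.3.0 and build mRatBN7.2; the annotation is not given in the sources used here. The authors' deposited metadata gave total counts, the percent of mitochondrial counts and the labels (projected label, else initial cluster). Their label transfer and filters are not given in the sources used here, and no doublet caller was run. The spatial tables hold no value per gene and were not used. The 7 genes, the gene lists and the comparisons were chosen with earlier results of these data known.

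With Python 3.11.15, NumPy 2.4.6, SciPy 1.17.1 and pandas 2.3.3, UMIs were summed per label of at least 20 cells and divided by the label total. A lead needed 20 UMIs and 3-fold; genes over the whole table needed 100 UMIs. A count under 3 UMIs was set to 3 in a ratio. Co-detection was set beside the product of shares within 5 classes of total UMIs. Named were the 7 genes, the 4 most abundant and all led genes of the first lists, 3 like genes per gene and, for the Myh11 ranges (and, added later, some for Rgs5 and Cnn1), 10 genes in each direction with a UMI in at least 25% of mural cells; any others named were chosen after their values were seen. Some genes of the lists are counted but not reported here by name. The calculations were checked on simulated counts. Promoters are from RefSeq, GRCr8, another build than the counts.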

Additional observations from a re-analysis of the deposited data

Results flagged for a closer look

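The stromal matrix held 2934 barcodes without a label, with a median of 1220 UMIs, which entered no comparison. They carried more than 3 UMIs of 6 of the 7 genes: 3349 UMIs of Tagln, 1134 of Acta2, 660 of Des, 315 of Myh11, 298 of Rgs5 and 56 of Cspg4. Cnn1 had 3. As a level, Acta2 stood at 131 CPM in these barcodes and at 93.2 CPM in all annotated cells. In the same order, Myh11 was at 36.4 and 34.1 CPM, Rgs5 at 34.4 and 37.4 CPM, Des at 76.2 and 162 CPM, and Tagln at 387 and 749 CPM. Acta2 was detected in 240 of these barcodes and Rgs5 in 86.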

How the results depend on the processing

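No paired analysis was possible because every group held a single library, which also leaves no replicate to leave out. Of 269 values under alternatives, 204 stayed within the counting interval or 1.5 times of a count, 60 moved and 5 reversed. The share of mural cells with Acta2 and Rgs5 was 62.4%, and 48.7% when thinned to 3000 UMIs, 23.3% when thinned to 1000, and 46.2% when at least 2 UMIs were required. The count of genes higher in cells with Myh11 was 162. It was 76 and 39 after thinning to 3000 and 1000 UMIs, and 83 without cells carrying endothelial, epithelial or blood-cell markers. These settings test fewer genes, so a lower count is not by itself a lower share. The numbers of genes tested after thinning are given above. With genes of at least 20 UMIs, a setting that tests more, the count was 521. The count of lower genes was 39, and 89 with at least 3 Myh11 UMIs, 69 by the mean of the cells' CPM, 275 with genes of at least 20 UMIs, 580 with Cnn1 and 75 with Rgs5 in place of Myh11. Myh11 and Rgs5 led under the projected labels; with initial clusters, or labels of at least 50 cells, 3 genes led. A total of 5 directions reversed: Cnn1 in mural cells over the next label was 1.86 with initial clusters, Cspg4 was 0.788 thinned to 1000 UMIs and 0.940 by the mean of the cells' CPM, and Rgs5 in cells with Myh11 was 1.02 and 1.21 after thinning to 3000 and 1000 UMIs. The cause was not tested. The settings with Rgs5 in place of Myh11, without cells with Cnn1 or with Pdgfra, and without each label's top cell were chosen after seeing the data. Initial clusters hold the same mural cells, so they say nothing on co-detection or on the levels by Myh11. Cnn1 and Cspg4 are limited by 81 and 232 UMIs.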
